A study of Mus musculus with 7 samples.

Results

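Prostaglandin synthesis was followed through 9 genes, of 31829 gene names on the array, and these 9 were represented by 14 of the 39429 non-control probes. They were chosen by name, as every non-control probe that the array annotation assigns to Pla2g4a, Ptgs1, Ptgs2, Ptges, Ptges2, Ptges3, Ptgis, Ptgds or Hpgd. C2C12 cells are a mouse muscle line, in which myoblasts can be grown or fused to myotubes. Cultures of it received exosomes for 24 h, and the exosomes had been released by other C2C12 cultures treated with 0.5 mmol/l palmitate (EXO-Palm, 3 arrays) or with the BSA vehicle (EXO-BSA, 4 arrays). All 7 cultures therefore received exosomes, and they stem from a single cell line. These exosomes were collected after the palmitate had been removed. The samples are labelled as biological replicates. The cell line entry of the labels differs between samples while the source name gives C2C12 for every array, and the labels speak of myoblasts where the paper speaks of myotubes.

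Prostaglandins are short-lived lipid mediators made from arachidonic acid. Cytosolic phospholipase A2 (Pla2g4a) releases arachidonic acid from membrane phospholipids, the cyclooxygenases Ptgs1 and Ptgs2 convert it to prostaglandin H2, and terminal synthases turn that intermediate into prostaglandin E2 (Ptges, Ptges2, Ptges3), prostacyclin (Ptgis) or prostaglandin D2 (Ptgds). Hpgd inactivates prostaglandins by oxidising their hydroxyl group. In skeletal muscle these mediators are known for their part in inflammation, regeneration and the fusion of myoblasts.

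Levels are given as log2 of the processed intensity after subtracting the 75th percentile of each array, so 0 is that percentile. The percentile lay between 549 and 1621 intensity units, and the scanner software called 48.5 to 70.3% of the probes of an array well above background. All 11 myotube markers were well above background on every array, with a summed level of 653 to 847 with EXO-BSA and 626 to 747 with EXO-Palm in multiples of the 75th percentile. The summed level of 8 proliferation markers was 4.36 to 5.55 with EXO-BSA and 13.1 to 37.0 with EXO-Palm, and Aurkb was the marker below background on every array. All 7 proliferation markers tested were higher with EXO-Palm, 4 of them past the threshold. The 7 macrophage markers summed to 7.89 to 18.1 and 6.0 to 7.66, the 4 fibroblast markers to 52.6 to 113 and 62.7 to 67.9, the 4 myoblast markers to 21.1 to 29.1 and 17.6 to 31.5, the 4 endothelial markers to 4.15 to 5.28 and 3.05 to 6.20, and the 5 adipocyte markers to 0.649 to 0.760 and 0.522 to 0.791, each with EXO-BSA first. Of the 4 macrophage markers tested, 3 were higher with EXO-Palm and 1 was lower, and 0 passed the threshold. The lower marker was Itgam, the brightest of the 4, with a log2 difference of -1.63, so the macrophage sum does not stand for the set. Of the 4 fibroblast markers, all tested, 3 were higher with EXO-Palm and 1 was lower, and 0 passed. Here the lower marker was Col1a1 at -1.64 (limma adjusted p = 0.0701), so the fibroblast sum does not stand for its set either. The part of the cell type and proliferation markers in the results below was not tested. In such bulk RNA, fewer cells of a type and less RNA per cell cannot be told apart.

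None of the prostaglandin synthesis genes passed the threshold between EXO-Palm and EXO-BSA. Of the 14 probes, 11 were well above background on all 7 arrays and were tested, and they represented 8 genes. The other 3 probes, both of Hpgd and a second probe of Ptges, were near background and were not tested. By limma, 0 of the 11 had a Benjamini-Hochberg adjusted p under 0.05, where 0.533% of all 21589 probes tested had (115 probes, of which the higher made up 0.463% and the lower 0.0695% of those tested). At an unadjusted p under 0.05 there was 1 member probe, that of Ptgs2, beside 10.0% of all probes. The fitted log2 difference was above 0 for 7 of the 11 probes and below 0 for 4, with a median of 0.20 beside -0.02 over all probes tested. The 95% interval of the difference, which is not adjusted for the number of probes, held 0 for 10 of the 11.

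**Figure D1:**
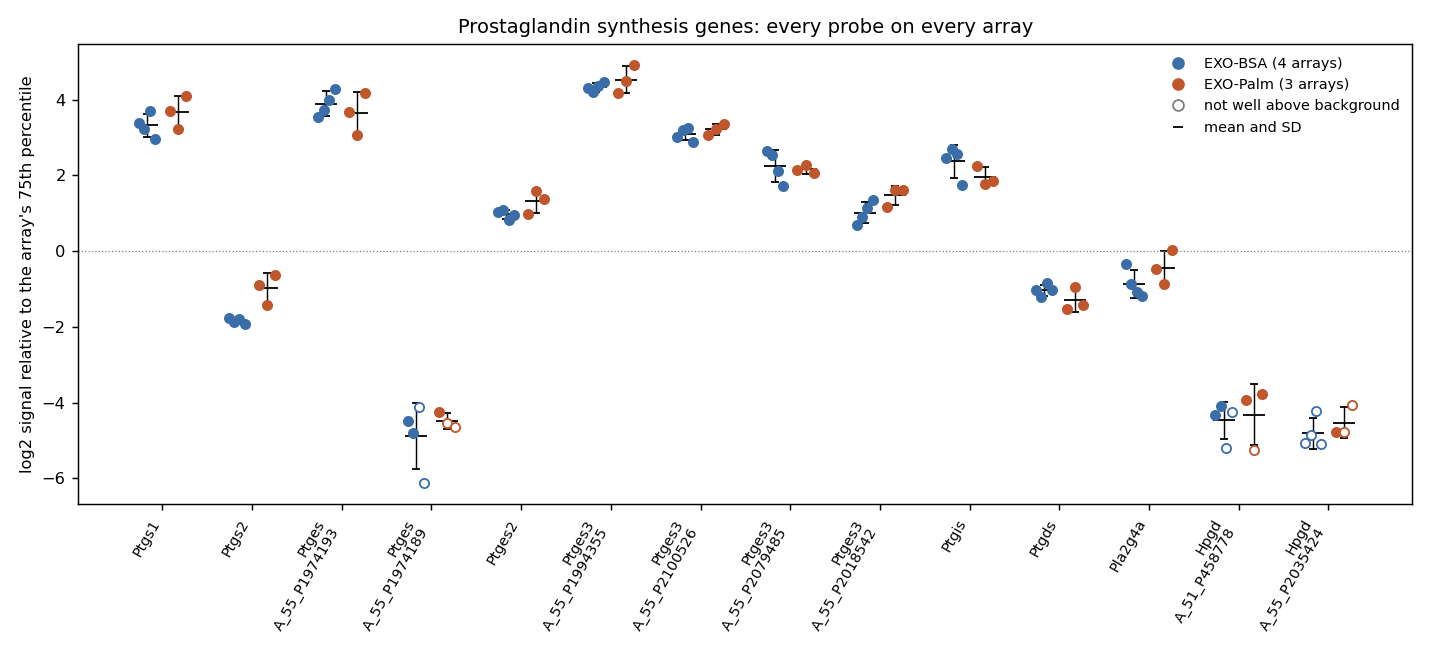
Level of every probe of the 9 genes on each array, on the log2 scale relative to the 75th percentile of that array; points are arrays, open points were not well above background, and bars give the mean and SD of the 4 EXO-BSA and 3 EXO-Palm arrays. The groups are separate for Ptgs2 alone among the 14 probes, and both Hpgd probes lie near background.

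Ptgs2 encodes the inducible cyclooxygenase, known as COX-2. Its probe is printed in 10 spots per array and lies at chr1:151954744-151954803 on the plus strand of mm9. The level was -1.76, -1.86, -1.79 and -1.92 on EXO-BSA replicates 1 to 4 and -0.90, -1.42 and -0.61 on EXO-Palm replicates 1 to 3. All 3 EXO-Palm arrays were above all 4 EXO-BSA arrays, as they were for 5.40% of all probes tested (11.3% had groups without overlap in either direction), and the EXO-BSA arrays lay close together (SD 0.07) while the EXO-Palm arrays were spread (SD 0.41). The difference was 0.85 on the log2 scale (SE 0.233, 95% interval 0.32 to 1.38), a 1.80-fold higher signal with EXO-Palm. It did not pass by limma (adjusted p = 0.233). Within slide 1 the EXO-Palm array was 0.91 above the mean of the EXO-BSA arrays and within slide 3 it was 1.30 above. The model with slide as a block gave 1.08 (adjusted p = 0.208). EXO-BSA replicate 3 and EXO-Palm replicate 2 were each alone on a slide. That model therefore took every difference, here and below, from slides 1 and 3 only. Without EXO-Palm replicate 2, the lowest EXO-Palm array, the difference was 1.07 (adjusted p = 0.0882), and without EXO-Palm replicate 3 it was 0.67 (adjusted p = 0.666). The proliferation markers, given above, were also higher in the EXO-Palm arrays.

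The 10 spots of the Ptgs2 probe allow a look at the measurement itself, although spots of an array are not replicates of a condition. All 70 spots were well above background, and 4 of them were left out because the scanner software marked them as outliers. These were 2 on EXO-Palm replicate 2, the lowest EXO-Palm array, 1 on EXO-BSA replicate 2 and 1 on EXO-BSA replicate 4. The differences of single spots therefore do not all rest on the same arrays. The difference between the group means was above 0 for each of the 10 spots and ranged from 0.56 to 1.31. The SD over the spots of an array was 0.14 to 0.61.

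**Figure D2:**
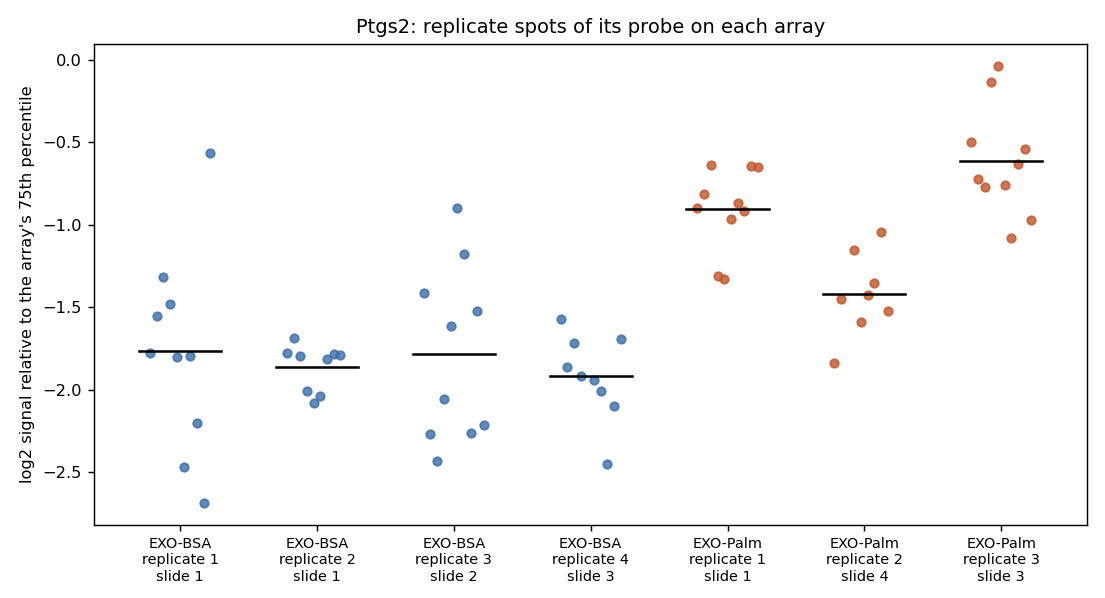
Replicate spots of the Ptgs2 probe on each array, with the slide of the array; points are spots kept, lines are array means, and the vertical axis is the log2 signal relative to the 75th percentile. The means of the 4 EXO-BSA arrays lie between -1.92 and -1.76, and those of the 3 EXO-Palm arrays between -1.42 and -0.61.

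The promoter of Ptgs2 is shown because the gene is inducible and because factors known to bind it were measured on the same arrays. The sequences are from RefSeq with coordinates on GRCm38.p6, a build other than that of the probes, and 8 of the 9 genes had a window in the reference table, all but Ptgis. Capitals mark matches, on either strand, to the letters of 6 motifs. For C/EBP they were TTNNGCAA. For the GC box they were GGGCGG. The TATA element was searched as TATAAA, the AP-1 site as TGANTCA, the half-site of a cyclic AMP response element as TGACG and the E-box as CACGTG. The run before the annotated Ptgs2 start lies at chr1:150099781-150100030 on the plus strand, and the short run after that start at chr1:150100038-150100061. The run before the start of Ptgs1, which encodes the cyclooxygenase regarded as constitutive, lies at chr2:36230176-36230425 on the plus strand and is shown for comparison.
Ptgs2 before the start: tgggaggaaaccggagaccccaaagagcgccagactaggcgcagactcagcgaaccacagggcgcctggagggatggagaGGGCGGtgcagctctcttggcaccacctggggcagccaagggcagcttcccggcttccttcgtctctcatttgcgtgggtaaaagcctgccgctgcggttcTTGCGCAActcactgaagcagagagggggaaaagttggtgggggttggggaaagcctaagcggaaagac
Ptgs2 after the start: ccactaCGTCACGTGgagtccgct
Ptgs1 before the start: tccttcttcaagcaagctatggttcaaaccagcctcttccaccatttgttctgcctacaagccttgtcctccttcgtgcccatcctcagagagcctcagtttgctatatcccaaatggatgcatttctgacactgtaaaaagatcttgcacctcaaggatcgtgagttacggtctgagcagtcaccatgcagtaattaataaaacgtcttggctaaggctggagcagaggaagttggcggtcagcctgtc
The C/EBP match of Ptgs2 began 69 bases and the GC box match 170 bases before the start. Over 32851 promoter windows of mouse genes, 9.56% held the C/EBP letters and 32.7% the GC box letters within the same 250 bases. The half-site and the E-box of Ptgs2 began at bases 14 and 17 after the start and share bases. These letters occurred in 20.8% and 7.15% of the whole 300-base windows. Ptgs1 held none of the 6 motifs in its window, which says only that these letters are not there. In the 250 bases before the start, TATAAA was found in 12.4%, TGANTCA in 6.75%, TGACG in 17.8% and CACGTG in 6.02% of all windows.

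Ptgs1 had a single probe, at chr2:36105892-36105951 on the plus strand of mm9. Its level was 3.39, 3.22, 3.70 and 2.97 on EXO-BSA replicates 1 to 4 and 3.69, 3.21 and 4.09 on EXO-Palm replicates 1 to 3. The groups overlapped, with EXO-Palm replicates 1 and 2 within the span of the EXO-BSA arrays. The log2 difference was 0.35 (SE 0.276, 95% interval -0.28 to 0.97, limma adjusted p = 0.717). A slide term in the model gave 0.70 (adjusted p = 0.502), and the difference was 0.39 within slide 1 and 1.12 within slide 3. It was smaller with normexp (0.14) and with the authors' values (0.23), and ranged from 0.13 without EXO-Palm replicate 3 to 0.57 without EXO-Palm replicate 2.

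Pla2g4a, whose product supplies arachidonic acid to both cyclooxygenases, is a neighbour of Ptgs2 on chromosome 1. Their probes are 278 kb apart on mm9 and the reference annotation places 0 protein-coding genes between them. The Pla2g4a probe, at chr1:151676814-151676873 on the minus strand, measured -0.35, -0.88, -1.09 and -1.18 on EXO-BSA replicates 1 to 4 and -0.46, -0.86 and 0.03 on EXO-Palm replicates 1 to 3. The groups overlapped, and EXO-BSA replicate 1 was higher than 2 of the 3 EXO-Palm arrays. Its log2 difference was 0.44 (SE 0.293, 95% interval -0.22 to 1.11, limma adjusted p = 0.657), with 0.15 within slide 1 and 1.21 within slide 3. It was 0.21 without EXO-Palm replicate 3 and 0.66 without EXO-Palm replicate 2.

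The 3 prostaglandin E2 synthases were represented by 7 probes, of which 6 were tested and 0 passed by limma. Ptges, the inducible membrane-bound synthase that is coupled to Ptgs2, measured 3.55, 3.74, 4.00 and 4.30 with EXO-BSA and 3.67, 3.07 and 4.18 with EXO-Palm at its probe A_55_P1974193 (chr2:30744995-30745054, minus strand, mm9). These groups overlapped, and the log2 difference was -0.26 (SE 0.306, 95% interval -0.95 to 0.44, adjusted p = 0.818). It turned to 0.028 without EXO-Palm replicate 2. The other Ptges probe, A_55_P1974189 (chr2:30748214-30748273), begins at base 364 of the transcript in the array annotation, against base 3583 for the first. It was well above background on EXO-BSA replicates 1 and 2 and EXO-Palm replicate 1 and received no test. Those are the arrays of slide 1, which had the largest shares of probes well above background (62.0 to 70.3%). The 2 probes of this gene thus differed in whether they were detected.

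Ptges2, a further membrane-associated synthase, measured 1.03, 1.08, 0.82 and 0.96 with EXO-BSA and 0.99, 1.60 and 1.39 with EXO-Palm (chr2:32257968-32258027, plus strand, mm9). EXO-Palm replicate 1 lay inside the EXO-BSA range and the other two lay above it. The log2 difference was 0.35 (SE 0.215, 95% interval -0.14 to 0.84, limma adjusted p = 0.629), and 0.15 with slide as a block. It was 0.22 without EXO-Palm replicate 2.

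Ptges3 encodes p23, a cytosolic synthase that is also a co-chaperone of Hsp90. Its 4 probes lie between bases 127513224 and 127514310 of chromosome 10 (plus strand, mm9), and all were well above background on the 7 arrays. The probe A_55_P1994355 measured 4.30, 4.20, 4.35 and 4.48 with EXO-BSA and 4.19, 4.49 and 4.92 with EXO-Palm, and the probe A_55_P2018542 measured 0.70, 0.90, 1.15 and 1.34 against 1.18, 1.61 and 1.62. Both pairs of groups overlapped. The log2 differences of the 4 probes were 0.45 (A_55_P2018542, adjusted p = 0.579), 0.20 (A_55_P1994355, 0.804), 0.13 (A_55_P2100526, 0.864) and -0.10 (A_55_P2079485, 0.930), so the probes of this gene did not share a sign.

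Among the other terminal synthases, Ptgis makes prostacyclin. It measured 2.45, 2.71, 2.58 and 1.75 with EXO-BSA and 2.26, 1.78 and 1.87 with EXO-Palm (chr2:167028696-167028755, minus strand, mm9). EXO-BSA replicate 4 was the lowest of all 7 arrays and the groups overlapped. The log2 difference was -0.40 (SE 0.277, 95% interval -1.04 to 0.23, adjusted p = 0.670), and -0.13 with slide as a block. With normexp it was 0.016 and with the authors' values -0.012, and it was -0.61 without EXO-BSA replicate 4. Ptgds, the lipocalin-type prostaglandin D synthase, measured -1.04, -1.20, -0.84 and -1.03 with EXO-BSA and -1.53, -0.95 and -1.42 with EXO-Palm (chr2:25322232-25322291, minus strand, mm9). Here 2 EXO-Palm arrays lay below all EXO-BSA arrays and 1 lay among them. The log2 difference was -0.28 (SE 0.219, 95% interval -0.77 to 0.22, adjusted p = 0.716). It was -0.54 with normexp (adjusted p = 0.418) and -0.64 with the authors' values (adjusted p = 0.433), and -0.16 without EXO-Palm replicate 1. Within both slides that held the 2 groups the EXO-Palm array was lower, with differences of -0.42 on slide 1 and -0.39 on slide 3, and Ptgds was the only probe of the 11 for which that was so.

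Hpgd, the enzyme of inactivation, was near background. Its probe A_51_P458778 (chr8:58799399-58799458, plus strand, mm9) measured -4.33, -4.10, -5.19 and -4.26 with EXO-BSA, of which 2 arrays were well above background, and -3.94, -5.25 and -3.77 with EXO-Palm, of which 2 were. Its probe A_55_P2035424 (chr8:58798941-58799000) was well above background on EXO-Palm replicate 1 alone, the array with the largest share of such probes (70.3%). It measured -5.07, -4.86, -4.22 and -5.10 with EXO-BSA and -4.77, -4.76 and -4.06 with EXO-Palm, and no fold is given because most of these arrays were not well above background. The Hpgd signal was thus not well above background in much of the data, and no test was made.

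**Figure D3:**
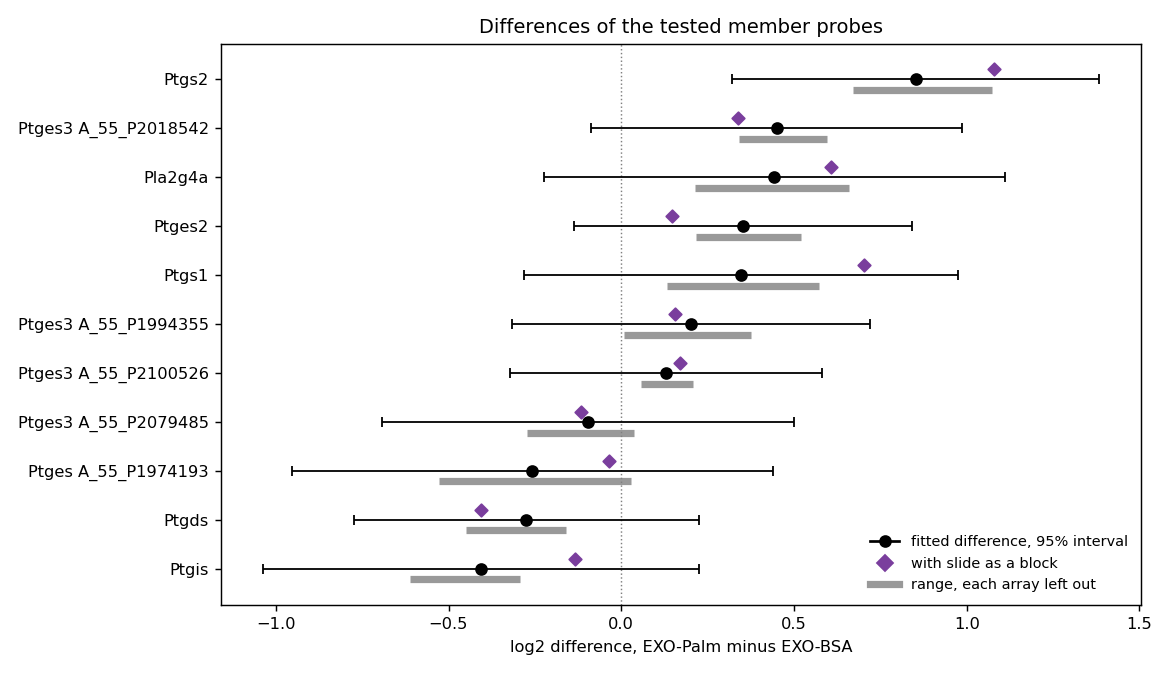
Log2 difference between EXO-Palm and EXO-BSA for the 11 tested probes of prostaglandin synthesis genes; circles and bars are the fitted difference with its 95% interval, diamonds the difference with slide as a block, and grey bars the range when each array was left out in turn. The interval of Ptgs2, 0.32 to 1.38, is the only one without 0.

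Across the 11 tested probes, the sign was the same with and without slide as a block. The EXO-Palm array was higher on both slides that held the 2 groups for 4 probes, among them Ptgs1, Ptgs2 and Pla2g4a. On slide 3, which held EXO-BSA replicate 4 and EXO-Palm replicate 3, 9 of the 11 probes were higher with EXO-Palm, and on slide 1, 5 were. Slide 3 thus sets 1 array against 1 array, and 4 of the 11 probes are of Ptges3. The share of all probes tested that were higher on these slides was not counted. The counts therefore say nothing particular to the 9 genes. Of the 9 genes, 5 are on chromosome 2 (Ptgs1, Ptges, Ptges2, Ptgis and Ptgds), which holds 8.12% of the probes that have a coordinate.

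The genes around prostaglandin synthesis were taken from 9 lists of 89 genes, described by the brightest tested probe of each gene. Of them 62 were tested, 24 with a difference above 0 and 38 below. Over all 21589 probes tested, 10216 were above 0 and 11373 below. The groups did not overlap for 5 of the 62 genes with EXO-Palm higher and for 3 with it lower. The shares of all probes tested were 5.40% and 5.87%. By limma 1 of the 62 genes passed, beside 0.533% of all probes tested. That gene was Ptgfr, the receptor for prostaglandin F2 alpha, at chr3:151464323-151464382 on the minus strand of mm9. It measured -2.89, -2.86, -2.15 and -2.61 on EXO-BSA replicates 1 to 4 and -0.54, -1.30 and -0.03 on EXO-Palm replicates 1 to 3. It rose by 2.01 on the log2 scale (SE 0.330, limma adjusted p = 0.0436), all EXO-Palm arrays being higher. The model with a slide term, which draws on slides 1 and 3 only, gave 2.44 (adjusted p = 0.0327). The call was lost when any array other than EXO-Palm replicate 2 was left out, with differences between 1.71 and 2.34 over the arrays left out and adjusted p up to 0.171. It was also lost with normexp, quantile normalisation, the authors' values, no probe filter, the replicate block and the methods' t-test, at adjusted p from 0.0502 to 0.250. Only 3 of the 9 prostanoid receptors were tested, and of the others Ptger4, a receptor for prostaglandin E2, had a log2 difference of -0.47 (adjusted p = 0.664). None of the 4 genes of transport and breakdown passed. Ptgr2, which reduces oxidised prostaglandins, was the highest of the 3 tested there at 0.80 (adjusted p = 0.349) without overlap of the groups, although its 3 tested probes gave 0.80, 0.88 and -0.93, and Abcc4, an exporter of prostaglandins, was at -0.13.

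The enzymes beside and upstream of the 9 genes had no call. The 9 tested genes among the other phospholipases A2 had a median log2 difference of 0.02, from -1.15 (Pla2g7) to 0.51 (Pla2g15). Pla2g7 was well above background on 4 EXO-BSA and 2 EXO-Palm arrays, so the size of its difference rests in part on signal near background. For the 5 other prostanoid synthases tested the median was -0.33, from -0.65 (Fam213b, under its older name 2810405K02Rik) to 0.36 (Cbr3). Fam213b was well above background on 4 EXO-BSA arrays and 1 EXO-Palm array, and its value carries the same limit. The 11 genes of arachidonate supply and re-esterification had a median of -0.20, with Mgll, which releases arachidonic acid by way of 2-arachidonoylglycerol, lowest at -1.14 (SE 0.304, adjusted p = 0.220) and Fads1 highest at 0.27. Mgll was lower on all EXO-Palm arrays than on any EXO-BSA array, as were 5.87% of all probes. The 7 tested genes of the lipoxygenase and leukotriene branch had a median of -0.17, from -0.34 (Ltb4r2) to 0.09 (Alox5ap). Ltb4r2 was well above background on 3 EXO-BSA and 2 EXO-Palm arrays, and its value is limited in the same way.

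**Figure D4:**
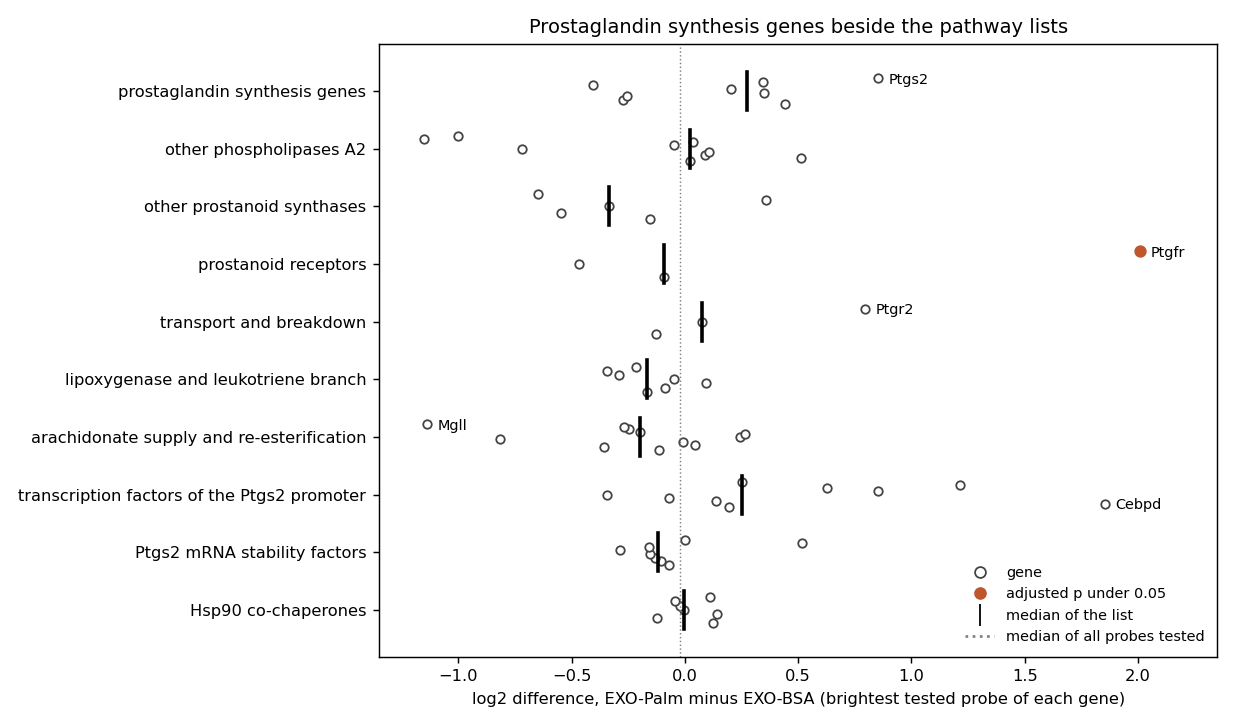
Log2 difference between EXO-Palm and EXO-BSA for the tested genes of each list, with 1 point per gene at its brightest tested probe; filled points passed an adjusted p of 0.05, black bars are list medians and the dotted line is the median of all probes tested. Ptgfr at 2.01 is the only filled point, and Ptgs2 at 0.85 is the highest of the prostaglandin synthesis genes.

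The regulators of Ptgs2 had no call either. Of 9 transcription factors known at its promoter all were tested, 7 with a difference above 0 and 2 below, with a median of 0.25. Cebpb, a C/EBP factor, had a log2 difference of 0.20 (limma adjusted p = 0.796) with overlapping groups. Cebpd, also a C/EBP factor, was highest. It measured 1.60, 1.72, 1.22 and 1.90 with EXO-BSA and 3.73, 2.31 and 4.35 with EXO-Palm. All 3 EXO-Palm arrays were above all EXO-BSA arrays, as they were for 5.40% of all probes tested. The log2 difference was 1.85 (SE 0.443, limma adjusted p = 0.164). The model with a slide term gave 2.23 (adjusted p = 0.0327), and the difference was 2.43 without EXO-Palm replicate 2 (adjusted p = 0.0140), both past the threshold. They are not separate results, because EXO-Palm replicate 2, the lowest EXO-Palm array for Cebpd, does not enter the difference in either. The lowest factor was Jun at -0.34. Of the 9 factors of Ptgs2 mRNA stability 8 were tested, with a median of -0.12, from -0.29 (Tia1) to 0.52 (Zfp36l1). The 7 genes of the Hsp90 machinery to which the Ptges3 product belongs stayed between -0.12 (Cdc37) and 0.14 (Fkbp4).

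The genes whose pattern over the 7 arrays was most like that of Ptgs2 were sought among 17469 tested genes, by the root mean square difference of the log2 values after centring each gene on its own mean. The closest were a predicted transcript without a symbol (0.108), 5330438D12Rik (0.118), 2700094K13Rik (0.125), Swap70 (0.132) and Timeless (0.141), where Ptgs2 itself varied by 0.477 about its mean. Their log2 differences lay between 0.73 and 1.08, and 0 of the 5 passed by limma. Differences near that of Ptgs2 follow from how the 5 were chosen and are not a separate result.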

How the data were processed

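RNA of C2C12 cells given exosomes for 24 h (100 ng, labelled with Cy3) was measured on 1-colour Agilent arrays, 4 EXO-BSA and 3 EXO-Palm. The authors deposited the scanner output of each array, an intensity after background subtraction and detrending without normalisation across arrays. A table of log2 values that the authors had normalised was also deposited. The labels name limma and Agilent Feature Extraction 9.1, whereas the file headers give later versions, and the file of EXO-BSA replicate 3, from a later version than the others, was joined to gene names by probe. The settings of the authors' normalisation are not given in the sources used here.

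The processed intensity was taken to log2 and centred on the 75th percentile of the array, over 43020 non-control spots. Outlier spots were left out, and no spot was saturated. Spots of a probe were averaged. Of 39429 probes, 21589 called above background in 75% or more of the arrays of either group were tested with limma 3.58.1 in R 4.3.3 (condition as the only term, 2-sided, Benjamini-Hochberg adjusted p of 0.05 over all probes). Slides were numbered 1 to 4. Slide 1 held EXO-BSA replicates 1 and 2 and EXO-Palm replicate 1, and slide 3 held EXO-BSA replicate 4 and EXO-Palm replicate 3. EXO-BSA replicate 3 was alone on slide 2 and EXO-Palm replicate 2 alone on slide 4. With slide as a block, the difference therefore comes from slides 1 and 3 only. The fit was tested on simulated data. The number of arrays limits precision.

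The 9 genes and the lists were chosen with earlier results of these data known. Every probe of the 9 genes was named, and of each list the genes past the threshold and those with the largest difference in each direction. Cebpb was named in addition, beside Cebpd. Alternatives covered background correction, normalisation, probe filter, flagged spots, slide, replicate number, array weights, variance model, the methods' t-test and each array left out.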

Additional observations from a re-analysis of the deposited data

How the results depend on the processing

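The count of prostaglandin synthesis probes past the threshold was 0 under all 21 alternatives, with 1 or 2 probes at an unadjusted p under 0.05. With no probe filter, the replicate block, the methods' t-test and without EXO-BSA replicate 1, 0 of all probes passed. In these settings the 0 was fixed and says nothing about the prostaglandin synthesis probes. Without EXO-Palm replicate 1, only 7 of all probes passed. Ptgs2 kept its direction in all 21, at 0.67 to 1.07 with single arrays left out and 0.55 to 1.08 otherwise, and its adjusted p ranged from 0.0882 to 0.797. Of 231 values of single probes, 226 kept direction and side of the threshold and 5 changed sign: Ptges A_55_P1974193 (-0.53 to 0.028 with single arrays left out, above 0 without EXO-Palm replicate 2), Ptges3 A_55_P2079485 (0.37 with normexp, 0.30 with the authors' values, -0.27 to 0.037 with single arrays left out, above 0 without EXO-BSA replicate 1) and Ptgis (0.016 with normexp). The cause was not tested.

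Of the pathway lists, 1 gene passed. The count was 0 with normexp, quantile normalisation, the authors' values, no probe filter, the replicate block and the methods' t-test after adjustment, and 2 with slide as a block. With no probe filter, the replicate block, the methods' t-test and without EXO-BSA replicate 1, 0 of all probes passed, so no list gene could. With single arrays left out the count of list genes was 0 to 2, with 2 without EXO-Palm replicate 2 and 0 without any other array. EXO-Palm replicate 2 does not enter the difference with slide as a block either.

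Replicate numbers did not pair the arrays: deviations of arrays of the same number correlated at 0.12, -0.15 and -0.15, and not every array correlated best with its own number. The replicate block gave 0 prostaglandin synthesis probes and 0 list genes past the threshold, and 0 of all probes. The methods' t-test called 0 of all probes after adjustment and 2108 at an unadjusted p under 0.05, of which 1 was a prostaglandin synthesis probe. Normexp was chosen after seeing the data on median intensities, because 1 file holds no mean intensities, so the planned version on means was not run. Over all probes, the count of 115 became 0 without EXO-BSA replicate 1, 7 without EXO-Palm replicate 1, 202 without EXO-Palm replicate 2 and 27 without EXO-Palm replicate 3.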

Other observations

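A pattern among the EXO-Palm arrays was noticed after the values were seen. For 4 of the 11 tested prostaglandin synthesis probes, or 36.4%, EXO-Palm replicate 3 was highest and replicate 2 lowest of the 3 arrays, an order found in 17.1% of the 21491 probes with a value on all 3. These were the probes of Ptgs1, Ptgs2 and Pla2g4a and the tested probe of Ptges, whose log2 difference was below 0 (-0.26). The order was picked from these same values, so the comparison of the shares is not a test. The same order was seen in Ptgfr, in Cebpd and in the summed level of the proliferation markers, which was 23.5, 13.1 and 37.0 on EXO-Palm replicates 1 to 3.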
